A study of Mus musculus with 6 samples.

Results

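The genes described here are markers of leukocyte lineages, a list of 35 symbols chosen as pan-leukocyte, macrophage and dendritic, T, NK, B and mast cell genes and matched through GENCODE M21. Of these, 34 were found among the 21603 genes with a value, while Trbc2 was not analysed here. They were measured in ribosome-bound RNA from lungs of C57BL/6 mice at postnatal day 8, in 3 control and 3 Yap1,Wwtr1 iPCKO samples. All 6 mice carried the Pdgfrb(BAC)-CreERT2 transgene, which is active in pericytes after tamoxifen, and 1 floxed Rpl22 allele (Rpl22 lox/+) whose recombination puts an HA tag on the ribosomal protein RPL22, and all received tamoxifen from P0 to P2. Controls were lox/+ for both Yap1 and Wwtr1 (labelled Yap1+/-;Wwtr1+/-), so they were Cre-positive heterozygotes and not wild-type, and iPCKO mice were lox/lox for both (labelled Yap1-/-;Wwtr1-/-). The lungs had been perfused through the heart before freezing, and RNA was precipitated with anti-HA beads from whole lung lysate.

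Leukocytes are the white cells of blood and tissue. Myeloid cells such as macrophages, monocytes and neutrophils share a programme driven by the ETS factor PU.1, which Spi1 encodes, and many of their activating receptors signal through the adaptors encoded by Tyrobp and Fcer1g. T and B cells carry antigen receptors built around the CD3 chains and the CD79 chains, and mast cells store proteases in granules. In the newborn lung, alveolar macrophages settle in the airspaces during the first days of life, and interstitial macrophages, monocytes and lymphocytes lie in the tissue and its vessels. Many of the markers are shared between lineages. Neutrophils also express pan-leukocyte genes and much of the myeloid group, including Tyrobp, Fcer1g, Spi1, Lyz2, Cd14 and Fcgr3, and type 2 alveolar epithelial cells also express Lyz2.

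Values are the authors' RPKM, reads per kilobase of exon per M mapped reads, which allow levels of different genes to be set side by side. The steps left by whole reads in low values implied 17.44 to 34.7 M reads in the controls and 14.26 to 39.65 M in the iPCKO samples. Groups were compared with limma on log2(RPKM + 0.1) over the 12034 genes that reached 1 RPKM in 3 or more samples. A gene was called when its Benjamini-Hochberg adjusted p was below 0.01 and its log2 fold change exceeded 0.5 in either direction. Nothing in the labels ties the samples to litters or batches. Yap1 lay between 11.5 and 13.2 RPKM in controls and between 5.25 and 5.83 RPKM in iPCKO samples, while Wwtr1 lay between 53.8 and 71.3 RPKM and between 60.3 and 63.5 RPKM. Values over a whole gene do not show whether a floxed exon was removed. The pericyte gene Pdgfrb had 1192.7 to 1665.8 RPKM in all 6 samples, above every listed leukocyte gene. The neutrophil genes S100a8 and S100a9, which are not on the list, exceeded Pdgfrb in iPCKO 3. They had 1726.1 and 2345.6 RPKM there, against 1192.7 RPKM for Pdgfrb.

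Of 20 pan-leukocyte and macrophage and dendritic genes, 18 were tested and 11 were called higher in iPCKO samples, T and NK cell genes all stayed below 1 RPKM, and the means of the B cell genes were lower in iPCKO samples without passing the thresholds. Of the 22 listed genes that could be tested, 11 were called higher and 0 lower, where 4.11% of all tested genes were called higher and 2.68% lower. At an adjusted p below 0.05 the count was 16 higher and 0 lower. Leaving out a sample gave 4 calls without control 1, 6 without control 3, 7 without iPCKO 2, 8 without iPCKO 3, 12 without control 2 and 16 without iPCKO 1, the last with 14 higher and 2 lower. The 11 genes were Tyrobp, Spi1, Fcer1g, Fcgr3, Cd52, Marco, Laptm5, Lyz2, Cd53, Mpeg1 and Coro1a, with log2 fold changes from 1.2 to 2.47. Of these, Marco had passed the filter only through the iPCKO samples. The list was chosen with earlier results of these data known, so its counts are a description. By the plain values, 22 of the 34 genes had every iPCKO sample above every control, 2 had every iPCKO sample below, and 10 overlapped. The same held above for 16.1% and below for 14.2% of the 17678 genes with any value above 0. Over all 34 genes, fitted without a filter on low values, the median log2 fold change was 0.81, and it was 0.01 over all genes in that fit. In RNA precipitated from whole lung lysate, a change in the number of cells of a type and a change in RNA per cell cannot be told apart. How much of the leukocyte RNA came from cells without the HA tag was not tested.

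**Figure D1:**
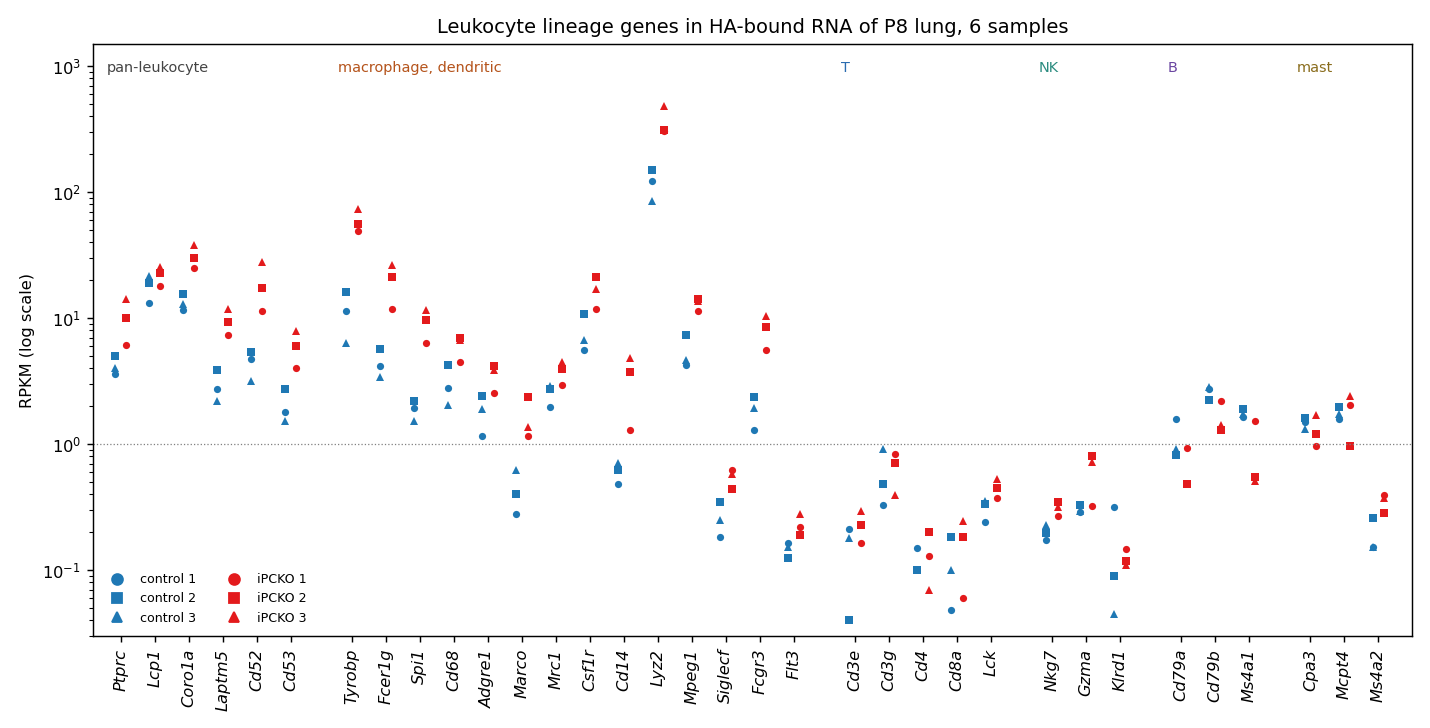
RPKM on a log scale for the 34 genes in each of the 6 samples, grouped by lineage (blue, control; red, iPCKO; marker shape, replicate number), with a dotted line at 1 RPKM. Lyz2 reached 485 RPKM in iPCKO 3, all T and NK cell genes stayed below 1 RPKM, and all 14 macrophage and dendritic genes had their 3 iPCKO values above their 3 control values.

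In controls the highest of these genes was Lyz2 with 119 ± 32.5 RPKM (SD, n = 3). It was followed by Lcp1 with 18.0 ± 4.38, Coro1a with 13.3 ± 2.03 and Tyrobp with 11.2 ± 4.79 RPKM, whose ranges overlapped, and then by Csf1r with 7.69 ± 2.78 RPKM. In iPCKO samples Lyz2 remained first with 368 ± 101 RPKM and Tyrobp was second with 59.4 ± 12.2 RPKM. Tyrobp then lay above Coro1a with no overlap, at 49.3 to 73.0 against 25.1 to 37.8 RPKM. Every T and NK cell gene, together with Flt3, Siglecf and Ms4a2, stayed below 1 RPKM in all 6 samples.

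Among pan-leukocyte genes, all 6 were tested and 4 were called higher. Ptprc encodes CD45, the receptor phosphatase on the surface of nearly all nucleated blood cells. It had 3.58, 5.04 and 4.05 RPKM in controls 1 to 3 and 6.11, 9.99 and 14.1 RPKM in iPCKO samples 1 to 3, so the groups did not overlap. The log2 fold change of 1.17 ± 0.27 (SE) missed the threshold with an adjusted p of 0.021, and of the 6 leave-one-out fits it passed in that without iPCKO 1, the lowest mutant sample, with an adjusted p of 0.0014. Lcp1, which encodes the actin-bundling protein L-plastin, had 13.2, 18.9 and 21.8 RPKM in controls and 18.1, 22.8 and 25.6 RPKM in iPCKO samples. Its groups overlapped, as control 3 lay above iPCKO 1, and the fold change was 0.32 ± 0.19 with an adjusted p of 0.31.

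Coro1a (chr7:126699773-126707787 in GRCm38, minus strand), which encodes the actin-binding protein coronin 1A, had 11.6, 15.5 and 12.9 RPKM in controls and 25.1, 29.9 and 37.8 RPKM in iPCKO samples. Laptm5 (chr4:130913125-130936141, plus strand), for a lysosomal membrane protein of blood cells, had 2.75, 3.89 and 2.22 RPKM in controls and 7.38, 9.28 and 11.8 RPKM in iPCKO samples. Every mutant value was thus well above the highest control in both genes. Coro1a rose by 1.2 ± 0.16 on the log2 scale (adjusted p = 0.0018) and Laptm5 by 1.66 ± 0.22 (adjusted p = 0.0017).

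Cd52 (chr4:134082448-134095082, minus strand), which encodes a small glycosylphosphatidylinositol-anchored peptide of lymphocytes and myeloid cells, had 4.74, 5.41 and 3.18 RPKM in controls and 11.4, 17.5 and 27.8 RPKM in iPCKO samples. Cd53 (chr3:106759921-106790149, minus strand), for a leukocyte tetraspanin, had 1.79, 2.72 and 1.53 RPKM in controls and 4.0, 6.01 and 7.91 RPKM in iPCKO samples. In both genes the highest mutant sample was iPCKO 3 and the lowest was iPCKO 1, as for all 6 pan-leukocyte genes. Cd52 rose by 2.00 ± 0.31 (adjusted p = 0.0033) and Cd53 by 1.51 ± 0.27 (adjusted p = 0.0069). The calls depended on single samples to different degrees when each was left out in turn. Coro1a lost its call without control 3 and Laptm5 without control 1, with adjusted p of 0.010 and 0.011, while Cd52 kept it in 3 and Cd53 in 2 of the 6 leave-one-out fits, with adjusted p up to 0.015 for Cd52 and 0.029 for Cd53.

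In the second list of 13 pan-leukocyte genes, none of them a member, all were tested, 6 were called higher and 0 lower. The most abundant were Arhgdib, Itgb2 and Rac2. Itgb2, the beta chain of the leukocyte integrins, had 3.51 to 6.65 RPKM in controls and 10.4 to 23.6 RPKM in iPCKO samples, and rose by 1.83 ± 0.31 (adjusted p = 0.0055). Rac2, a GTPase of blood cells, went from 1.58 to 2.72 RPKM in controls to 7.34 to 21.4 RPKM, a change of 2.47 ± 0.35 (adjusted p = 0.0022). Of the 6 leave-one-out fits, Itgb2 kept its call in 2 and Rac2 in 4. Arhgdib, a regulator of such GTPases, had 18.3 RPKM in iPCKO 1, close to the controls at 16.8 to 18.0 RPKM, and was not called (0.66 ± 0.28, adjusted p = 0.15).

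Of the 14 macrophage and dendritic genes, 12 were tested and 7 were called higher. The largest changes among the called ones were those of receptor adaptors, an Fc receptor and the lineage factor, from 2.06 to 2.47. Tyrobp (chr7:30413760-30417585, plus strand), which encodes the signalling adaptor DAP12, had 11.3, 16.0 and 6.39 RPKM in controls and 49.3, 56.0 and 73.0 RPKM in iPCKO samples. Fcer1g (chr1:171229572-171234365, minus strand), for the common gamma chain of Fc receptors, had 4.19, 5.66 and 3.42 RPKM in controls and 11.8, 21.1 and 26.6 RPKM in iPCKO samples. Both adaptors were at least 2 times as high in the lowest mutant sample as in the highest control. Tyrobp rose by 2.47 ± 0.29 (adjusted p = 0.00099), the largest change of the called genes, and Fcer1g by 2.09 ± 0.29 (adjusted p = 0.0019). Tyrobp was called in all 6 leave-one-out fits and Fcer1g in 5, losing its call without control 1 with an adjusted p of 0.012.

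Spi1 (chr2:91082390-91115756, plus strand), the gene of PU.1, had 1.94, 2.21 and 1.53 RPKM in controls and 6.38, 9.74 and 11.7 RPKM in iPCKO samples. Fcgr3 (chr1:171051174-171064935, minus strand), a low-affinity receptor for the Fc part of IgG, had 1.29, 2.38 and 1.93 RPKM in controls and 5.55, 8.47 and 10.4 RPKM in iPCKO samples. Neither gene had a control near the mutant values. Spi1 rose by 2.20 ± 0.22 (adjusted p = 0.00042) and Fcgr3 by 2.06 ± 0.26 (adjusted p = 0.0014), and both were called in all 6 leave-one-out fits.

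Since PU.1 is among the called genes, the promoters of the list were searched for AGGAAGT and its reverse complement ACTTCCT, letters found at the core of sites for PU.1 and other ETS factors. Within the 250 bases before an annotated RefSeq start, on either strand, they occurred in 6 of the 24 listed genes with a sequence (25.0%; Ptprc, Mrc1, Lyz2, Cd3e, Lck and Cd79a) and in 2377 of all 27025 genes (8.8%). A gene counted as matching if any of its annotated starts did, and the number of starts differs between genes. Among the called genes, 1 of 8 with a sequence had a match, while Tyrobp, Spi1 and Cd52 had no sequence. The promoters of 3 called myeloid genes are shown with that of a B cell gene that did not rise, 5′ to 3′ on the strand of the gene, with any match in capitals. They are chr10:117282273-117282522 (minus strand), chr1:171234350-171234599 (minus strand), chr19:12460520-12460769 (plus strand) and chr7:24897247-24897496 (plus strand) in RefSeq's GRCm38.p6.
Lyz2: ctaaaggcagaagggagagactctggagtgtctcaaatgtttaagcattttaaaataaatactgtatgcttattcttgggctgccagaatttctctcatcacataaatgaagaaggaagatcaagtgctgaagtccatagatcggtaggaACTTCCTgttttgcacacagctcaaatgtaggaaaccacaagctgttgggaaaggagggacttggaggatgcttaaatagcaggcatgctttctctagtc
Fcer1g: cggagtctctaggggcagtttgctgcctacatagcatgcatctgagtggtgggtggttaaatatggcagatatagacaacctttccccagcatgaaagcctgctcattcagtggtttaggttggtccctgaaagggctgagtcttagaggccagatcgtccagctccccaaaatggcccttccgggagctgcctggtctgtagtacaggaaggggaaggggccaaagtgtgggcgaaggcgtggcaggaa
Mpeg1: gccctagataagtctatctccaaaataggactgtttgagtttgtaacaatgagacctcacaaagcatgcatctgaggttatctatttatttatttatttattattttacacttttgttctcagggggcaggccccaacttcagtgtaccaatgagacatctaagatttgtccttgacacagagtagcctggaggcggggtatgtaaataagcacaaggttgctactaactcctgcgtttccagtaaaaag
Cd79a: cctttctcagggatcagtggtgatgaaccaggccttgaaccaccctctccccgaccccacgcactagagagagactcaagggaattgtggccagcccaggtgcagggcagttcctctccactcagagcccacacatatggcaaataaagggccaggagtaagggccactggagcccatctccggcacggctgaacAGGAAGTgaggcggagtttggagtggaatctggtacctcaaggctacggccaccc
The match begins 100 bases before the start in Lyz2, as ACTTCCT, and 55 bases before it in Cd79a, as AGGAAGT, and there is none in Fcer1g or Mpeg1. A match is a description of letters and was not tied to binding.

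Lyz2 (chr10:117277331-117282321, minus strand), which encodes the lysozyme of macrophages, neutrophils and type 2 alveolar cells, had 122, 150 and 84.7 RPKM in controls and 308, 310 and 485 RPKM in iPCKO samples. Mpeg1 (chr19:12460779-12465283, plus strand), for the pore-forming protein perforin-2 of macrophages, had 4.26, 7.34 and 4.63 RPKM in controls and 11.3, 14.3 and 13.6 RPKM in iPCKO samples. The groups were apart in both genes, and the spread among mutant samples was small for Mpeg1. Lyz2 rose by 1.64 ± 0.24 (adjusted p = 0.0026) and Mpeg1 by 1.29 ± 0.19 (adjusted p = 0.0031). Lyz2 lost its call without control 1 (adjusted p = 0.013), and Mpeg1 kept it in 2 of the 6 leave-one-out fits, with adjusted p up to 0.015. Reads of Lyz2 can be shared with its close paralogue Lyz1, and how they were assigned was not tested.

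A set of 4 further genes in common use as markers of tissue macrophages had log2 fold changes from 0.58 to 1.13 and were not called. Csf1r, the receptor for the macrophage growth factor CSF1, had 5.55, 10.8 and 6.70 RPKM in controls and 11.9, 21.3 and 17.1 RPKM in iPCKO samples. Cd68, a lysosomal glycoprotein of phagocytes, had 2.79, 4.24 and 2.06 RPKM in controls and 4.47, 6.98 and 6.75 RPKM in iPCKO samples. In each gene iPCKO 1 came close to control 2, the highest control, and iPCKO 2 was the highest sample. Csf1r had a log2 fold change of 1.13 ± 0.27 (adjusted p = 0.024) and Cd68 of 1.01 ± 0.26 (adjusted p = 0.033), so neither was called. Without control 2 both passed, as did Csf1r without iPCKO 1, with adjusted p down to 0.0075 for Csf1r and 0.0099 for Cd68.

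Adgre1, which encodes the macrophage antigen F4/80, had 1.17, 2.39 and 1.90 RPKM in controls and 2.55, 4.21 and 3.89 RPKM in iPCKO samples. Mrc1, the mannose receptor of macrophages, had 1.96, 2.72 and 2.89 RPKM in controls and 2.95, 3.98 and 4.53 RPKM in iPCKO samples. The lowest mutant value exceeded the highest control by a narrow margin in both. Neither was called, with 0.95 ± 0.27 for Adgre1 (adjusted p = 0.047) and 0.58 ± 0.19 for Mrc1 (adjusted p = 0.085). Whether the changes of these receptors differed from those of Tyrobp or Spi1 was not tested.

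Marco and Cd14 entered the test only through the mutant samples, as all their controls were below 1 RPKM, so having passed the filter is no sign of a difference. Marco (chr1:120474538-120505024, minus strand), a scavenger receptor of alveolar macrophages, had 0.281, 0.404 and 0.624 RPKM in controls and 1.17, 2.35 and 1.38 RPKM in iPCKO samples. It was called with 1.68 ± 0.32 and an adjusted p of 0.0095, and lost the call in 5 of the 6 leave-one-out fits, with adjusted p up to 0.041. Cd14, the co-receptor for bacterial lipopolysaccharide on monocytes, had 0.484, 0.620 and 0.715 RPKM in controls and 1.29, 3.71 and 4.86 RPKM in iPCKO samples. The mutant values spread widely, and the log2 fold change of 2.09 ± 0.42 was not called (adjusted p = 0.012), although it passed without iPCKO 1 (adjusted p = 0.00019).

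Siglecf and Flt3 were too low to be tested. Siglecf, a lectin of alveolar macrophages and eosinophils, lay between 0.182 and 0.349 RPKM in controls and between 0.443 and 0.626 RPKM in iPCKO samples, which corresponds to 10 to 24 and 23 to 49 reads. Flt3, a growth factor receptor of dendritic cell precursors, lay between 0.126 and 0.163 RPKM in controls and between 0.189 and 0.280 RPKM in iPCKO samples. Both had all mutant values above all controls, on few reads. In the fit without a filter their fold changes were 0.87 ± 0.23 (adjusted p = 0.054) and 0.41 ± 0.18 (adjusted p = 0.20).

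**Figure D2:**
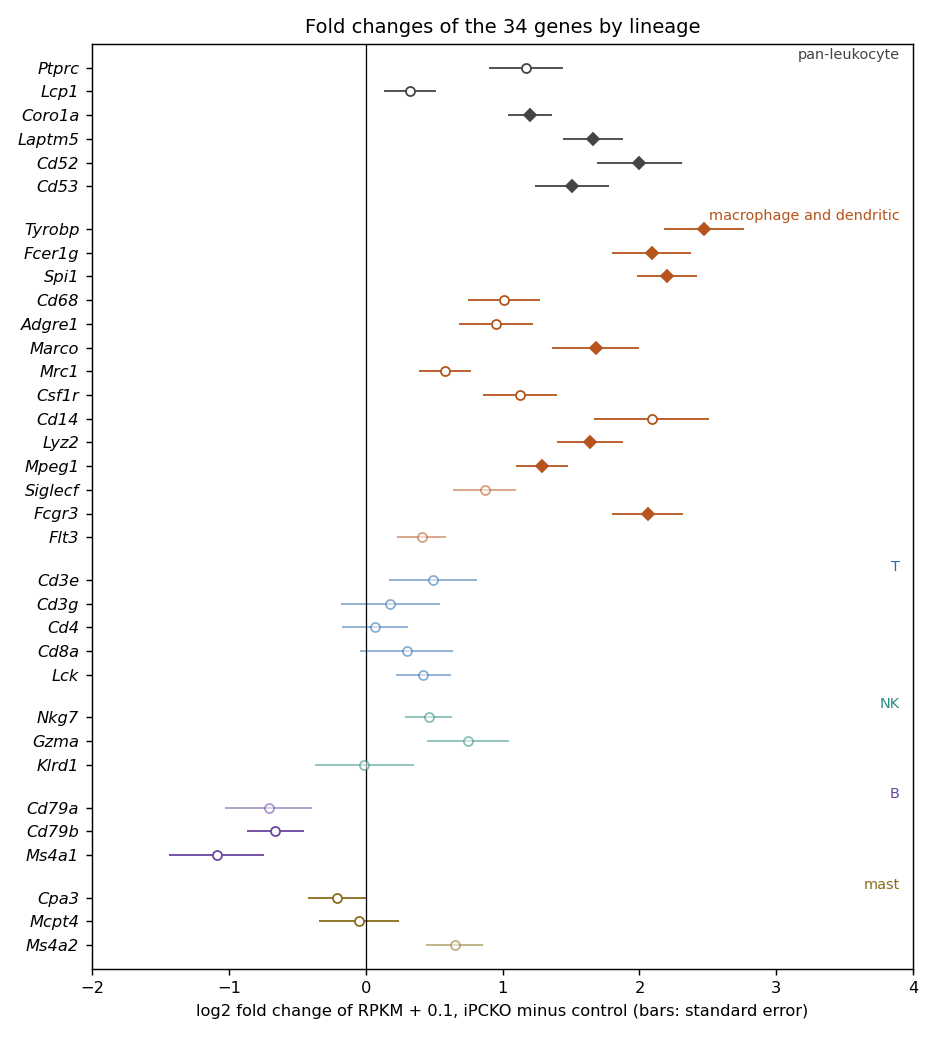
Log2 fold change of RPKM + 0.1 (iPCKO minus control, bars are the standard error) for the 34 genes by lineage. Filled diamonds are the 11 called genes, open circles are genes that were not called, and paler circles are the 12 genes below the filter, whose values come from the fit without it. Called genes lie between 1.2 and 2.47 and all belong to the pan-leukocyte and macrophage and dendritic groups, while the 3 B cell genes lie between -1.09 and -0.66.

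Further myeloid genes, taken from lists that hold no member, gave these counts. Of 12 macrophage and monocyte genes, all had their mutant values above their controls, 9 were tested and 3 were called higher, namely Ctss, Ccr2 and Ly6c2. Ctss, a lysosomal protease of antigen-presenting cells, had 7.47 to 13.8 RPKM in controls and 25.5 to 36.5 RPKM in iPCKO samples (1.67 ± 0.23, adjusted p = 0.0021). Ccr2, the chemokine receptor of inflammatory monocytes, had 0.793 to 1.53 RPKM in controls and 2.61 to 3.84 RPKM in iPCKO samples (1.41 ± 0.24, adjusted p = 0.0050). Ly6c2, a surface marker of the same cells, had 1.59 to 3.17 RPKM in controls and 7.83 to 24.4 RPKM in iPCKO samples (2.55 ± 0.40, adjusted p = 0.0038), and it is nearly identical to Ly6c1, with which it can share reads. Of the 6 leave-one-out fits, Ctss kept its call in 4, Ly6c2 in 3 and Ccr2 in 1.

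Fitted without a filter, the median log2 fold change was 1.1 for these macrophage and monocyte genes, 0.45 for alveolar macrophage genes and 0.12 for dendritic genes. Among 7 alveolar macrophage genes, 4 were tested and 1 was called, Chil3, which encodes a chitinase-like protein also made by neutrophils and had 0.995 to 2.21 RPKM in controls and 6.14, 12.5 and 27.2 RPKM in iPCKO samples (2.99 ± 0.48, adjusted p = 0.0042). Chil3 kept its call in 3 of the 6 leave-one-out fits. Ear2 and Plet1 were not called, with adjusted p of 0.048 and 0.16. None of the 3 tested genes of the 8 on the dendritic list was called. Batf3, a factor of cross-presenting dendritic cells, had 0.725 to 2.00 RPKM in controls and 2.37 to 4.58 RPKM in iPCKO samples (1.42 ± 0.36, adjusted p = 0.031), Itgax, the integrin CD11c, had a fold change of 0.86 ± 0.27 (adjusted p = 0.070), and Zbtb46, which endothelial cells also express, had -0.12 ± 0.12 (adjusted p = 0.52).

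None of the 5 T cell and 3 NK cell genes reached the filter. Cd3e and Cd3g, chains of the T cell receptor complex, lay between 0.0399 and 0.293 RPKM and between 0.332 and 0.916 RPKM over the 6 samples. Cd4 and Cd8a, the co-receptors of helper and cytotoxic T cells, lay between 0.0696 and 0.200 RPKM and between 0.0486 and 0.247 RPKM. Lck, the kinase that acts with these co-receptors, lay between 0.243 and 0.354 RPKM in controls and between 0.371 and 0.527 RPKM in iPCKO samples. Lck was the only T cell gene of the 5 whose groups did not overlap. Behind these values stood 1 to 52 reads per gene and sample, counted as the whole numbers that fit the steps of the RPKM values. In the fit without a filter the 5 fold changes ranged from 0.07 to 0.49, with adjusted p from 0.25 to 0.89, so none of the 5 passed.

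NK cell genes were as low. Nkg7, a granule membrane protein of cytotoxic cells, lay between 0.173 and 0.230 RPKM in controls and between 0.269 and 0.345 RPKM in iPCKO samples, with no overlap. Gzma, the protease granzyme A, had 0.289, 0.327 and 0.295 RPKM in controls and 0.323, 0.805 and 0.719 RPKM in iPCKO samples, where iPCKO 1 lay within the controls. Klrd1, which encodes the receptor chain CD94, was highest in control 1 with 0.317 RPKM and between 0.0450 and 0.147 RPKM in the other 5 samples. Their fold changes without a filter were 0.46 ± 0.17 (adjusted p = 0.15), 0.75 ± 0.30 (adjusted p = 0.16) and -0.01 ± 0.36 (adjusted p = 0.99), on 2 to 28 reads. Of 10 further T cell genes with values only Cd2 was tested. It had 1.66 to 2.63 RPKM in controls and 0.797 to 1.49 RPKM in iPCKO samples and was not called (-0.91 ± 0.25, adjusted p = 0.042). Lat, an adaptor of T cell receptor signalling, had 0.205 to 0.602 RPKM in controls and 0.724 to 1.25 RPKM in iPCKO samples, with no overlap, and 1.17 ± 0.33 without a filter (adjusted p = 0.064). Cd3d, another CD3 chain, had 0.307 to 0.477 RPKM in controls and 0.324 to 0.848 RPKM in iPCKO samples, which overlapped. None of 8 further NK cell genes was tested, and the highest of them, Il2rb, did not exceed 0.579 RPKM.

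Ms4a1 and Cd79b, both of B cells, were the only listed genes whose mutant samples all lay below all controls. Ms4a1 (chr19:11249675-11266241, minus strand), which encodes CD20, had 1.63, 1.90 and 1.72 RPKM in controls and 1.54, 0.552 and 0.512 RPKM in iPCKO samples. Cd79b (chr11:106311341-106314762, minus strand), a signalling chain of the B cell receptor, had 2.73, 2.24 and 2.82 RPKM in controls and 2.21, 1.29 and 1.42 RPKM in iPCKO samples. In both genes iPCKO 1 lay just under the lowest control, and the other two mutant samples lay lower and close to each other. Ms4a1 had a log2 fold change of -1.09 ± 0.35 (adjusted p = 0.073) and Cd79b of -0.66 ± 0.21 (adjusted p = 0.065), so neither was called. Without iPCKO 1 both were called lower, with adjusted p of 0.0012 for Ms4a1 and 0.0080 for Cd79b.

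Cd79a, whose product pairs with that of Cd79b and whose promoter is printed above, had 1.57, 0.827 and 0.910 RPKM in controls and 0.940, 0.485 and 0.481 RPKM in iPCKO samples, on 10 to 46 reads. It missed the filter and its groups overlapped, as iPCKO 1 lay above controls 2 and 3. The fold change without a filter was -0.71 ± 0.32 (adjusted p = 0.21). Of 7 further B cell genes 2 were tested and 0 were called. Pax5, the factor that fixes B cell identity, had 0.904 to 1.26 RPKM in controls and 1.19, 0.302 and 0.512 RPKM in iPCKO samples (-0.83 ± 0.39, adjusted p = 0.20). The kinase gene Blk, below the filter, had 0.973 to 1.0 RPKM in controls and 0.821, 0.601 and 0.652 RPKM in iPCKO samples. In each of these genes iPCKO 1 was the highest mutant sample, and it was nearest to the controls.

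Mast cell genes gave no call. Cpa3, the granule enzyme carboxypeptidase A3, had 1.5, 1.62 and 1.31 RPKM in controls and 0.976, 1.2 and 1.69 RPKM in iPCKO samples. Mcpt4, a chymase of connective tissue mast cells, had 1.59, 1.97 and 1.72 RPKM in controls and 2.05, 0.968 and 2.41 RPKM in iPCKO samples. Both genes overlapped between the groups, with fold changes of -0.21 ± 0.21 (adjusted p = 0.55) and -0.05 ± 0.29 (adjusted p = 0.94). Ms4a2, the beta chain of the high-affinity IgE receptor, lay between 0.153 and 0.260 RPKM in controls and between 0.286 and 0.393 RPKM in iPCKO samples, on 4 to 15 reads, and had 0.65 ± 0.21 without a filter (adjusted p = 0.10). Of 7 further mast cell and basophil genes 4 were tested and 0 were called. The most abundant were Mcpt8, a protease of basophils (1.44 ± 0.35, adjusted p = 0.025), the mast cell chymase Cma1 (-0.17 ± 0.32, adjusted p = 0.78), and the histamine-forming enzyme Hdc, which basophils and neutrophils also express (1.29 ± 0.33, adjusted p = 0.031).

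Neutrophil and platelet genes were also called higher in iPCKO samples. The 9 neutrophil genes, all tested, summed to 86.4 to 128 RPKM in controls and to 446, 1976.5 and 4920.4 RPKM in iPCKO samples 1 to 3. All 9 lay above their controls in every mutant sample, 5 were called higher (S100a8, S100a9, Csf3r, Retnlg and Cxcr2), and none was at 0 in any sample. Csf3r was called in all 6 leave-one-out fits, S100a8, S100a9 and Retnlg in 2 each and Cxcr2 in 1. The 8 platelet genes summed to 8.26 to 10.5 RPKM in controls and to 23.1, 45.4 and 65.4 RPKM in iPCKO samples. Of 6 tested genes, 5 were called higher (Pf4, Ppbp, Itga2b, Gp9 and Gp5), of which Gp9 and Gp5 entered the test only through the mutant samples. Pf4 and Gp9 were called in all 6 leave-one-out fits, Itga2b in 5, Gp5 in 2 and Ppbp in 1. Erythrocyte genes differed in pattern, with 2222.2 to 2783.4 RPKM in controls and 6027.1, 1370.3 and 2553.3 RPKM in iPCKO samples, and 0 of 7 called. The part of neutrophils, platelets or remaining blood in the values of the leukocyte genes was not tested.

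Sums of lung cell markers differed less between the groups than those of neutrophil and platelet genes, although the epithelial sums did not overlap. A sum can also hide changes in opposite directions, as among the pericyte genes. Endothelial genes summed to 143 to 154 RPKM in controls and 148 to 162 RPKM in iPCKO samples, with 1 of 8 called higher (Kdr), and epithelial genes to 583 to 667 and 843 to 898 RPKM, with 1 of 10 called higher (Sftpb). Fibroblast genes summed to 424 to 562 and 481 to 732 RPKM with 0 of 5 called. Pericyte genes summed to 2989.6 to 3799.5 and 2747.2 to 3363.1 RPKM. Of these 9 genes, 3 were called higher (Cspg4, Kcnj8 and Abcc9) and 2 lower (Notch3 and Rgs5). Cspg4, Abcc9 and Notch3 were called in all 6 leave-one-out fits, and Kcnj8 and Rgs5 in 1. Kdr kept its call in 3 of these fits and Sftpb in 1. Sftpc, a gene of type 2 cells, had 338 to 381 RPKM in controls and 433 to 467 RPKM in iPCKO samples (0.33 ± 0.11, adjusted p = 0.092). Of the 10 epithelial genes, 6 had every iPCKO sample above every control and 4 overlapped, where 16.1% of genes with any value lay above. The part of type 2 cells in the rise of Lyz2 by 1.64 was not tested.

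The leukocyte groups did not peak in the same mutant sample. All 6 pan-leukocyte genes and 8 of the 14 macrophage and dendritic genes were highest in iPCKO 3, where the neutrophil genes were highest as well. Another 5 of the 14, namely Cd68, Adgre1, Marco, Csf1r and Mpeg1, were highest in iPCKO 2, and Siglecf was highest in iPCKO 1. The 3 B cell genes were all highest in iPCKO 1 among mutant samples. Taken as the median log2 difference from the control mean, pan-leukocyte genes had 0.96, 1.40 and 1.85 in iPCKO samples 1 to 3, macrophage and dendritic genes 1.06, 1.47 and 1.44, and B cell genes -0.17, -0.99 and -1.0. Without iPCKO 3, 8 of the 11 calls among the leukocyte genes remained, and Cd53, Marco and Mpeg1 were lost. Among controls, control 2 had the highest median for pan-leukocyte and for macrophage and dendritic genes, at 0.29 and 0.37 above the control mean.

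**Figure D3:**
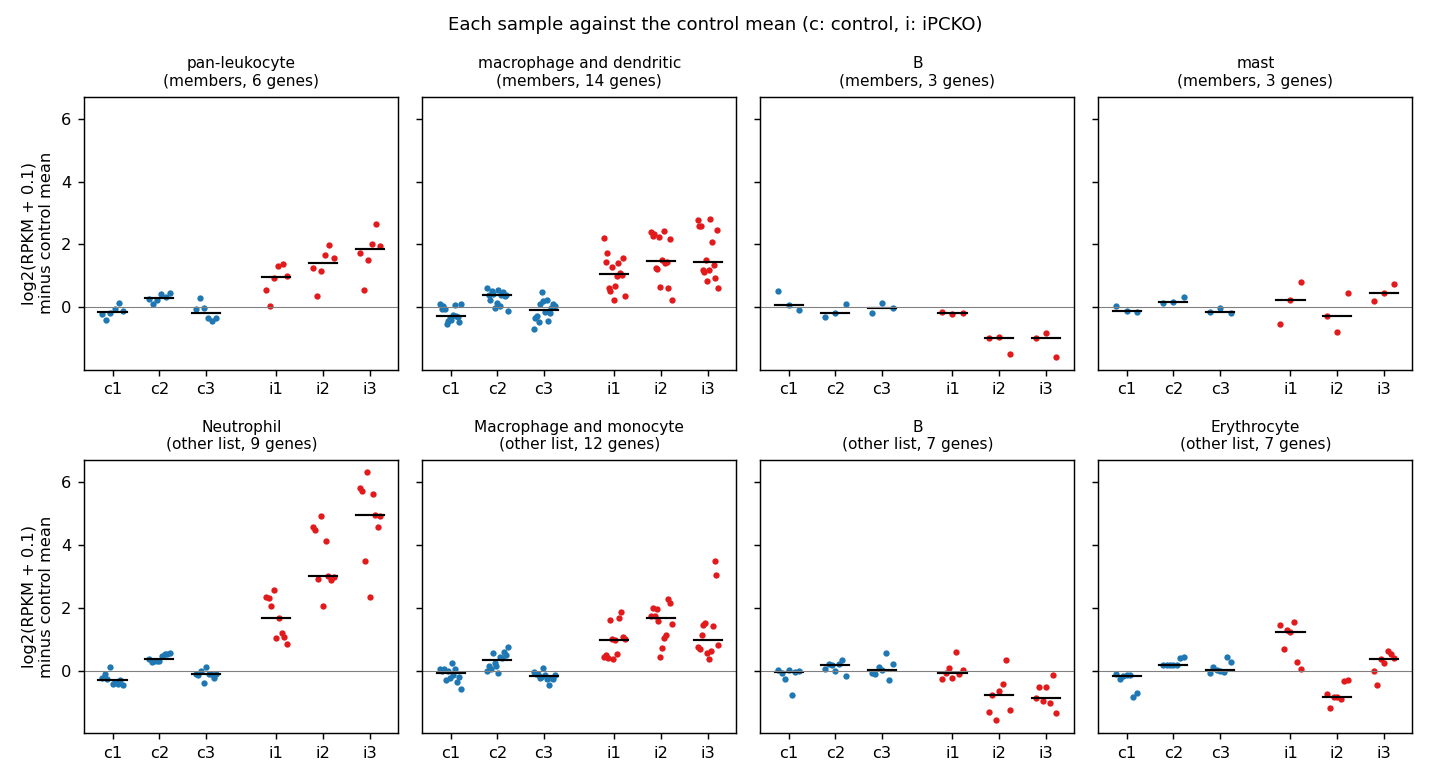
Difference of each gene's log2(RPKM + 0.1) from its control mean in controls 1 to 3 (c1 to c3, blue) and iPCKO samples 1 to 3 (i1 to i3, red), with the median of each list as a black line, for 4 member groups (top) and 4 lists of other genes (bottom). Neutrophil medians were 1.69, 3.00 and 4.97 in iPCKO samples 1 to 3, macrophage and dendritic members had 1.06, 1.47 and 1.44, and erythrocyte genes had 1.22, -0.85 and 0.36.

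Exons of 5 listed genes share bases with an annotated gene on the opposite strand. They are Csf1r (15.1% of its exon bases, with Hmgxb3), Cd52 (14.5%, with Crybg2), Lcp1, Cd3e and Coro1a (at most 3.3% with any gene). The libraries were stranded, but whether the counting used strand is not given in the sources used here, so reads of these genes and of their partners may not be separated.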

How the data were processed

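RNA bound to HA-tagged ribosomes was sequenced from 3 control and 3 iPCKO lungs, grouped by their labels. The authors mapped paired-end reads of stranded libraries to mm10 (GRCm38) with TopHat, made gene counts in HTSeq 0.6.1 and tested these in DESeq2. They deposited RPKM per Ensembl gene, and the exon length behind each RPKM is not stated. Depth comes from the steps of low values, and reads per gene are whole numbers that fit all 6 values within 0.04 reads, by the annotated exon length or else the smallest that fit, so that the true number may be a multiple. Such numbers cover counting error only.

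The RPKM were tested without further scaling with limma 3.58.1 (R 4.3.3) on log2(RPKM + 0.1) with eBayes (trend on), adjusting by Benjamini-Hochberg over the 12034 genes that reached 1 RPKM in 3 or more samples. Fold changes on this scale understate those of low genes. The thresholds are those of the study's methods, and the script was tested on simulated data. An exact permutation test cannot go below p = 0.1 with 3 samples against 3. Nothing says that replicates are separate litters, and p-values measure the spread between these samples. Symbols and coordinates (1-based) are from GENCODE M21, promoters from RefSeq. Proteins were not used here. The 35 genes and the other marker lists were chosen with earlier results of these data known. All listed genes are named, with the 3 most abundant genes of each further leukocyte list, of which 2 are not reported here, any called gene where 5 or fewer of such a list were called, and Yap1 and Wwtr1. Pdgfrb and Sftpc, and the called genes of the neutrophil, platelet, endothelial, epithelial and pericyte lists, were named after their values were seen. Trac, Ighm, Igkc and Ahsp were not analysed here. Alternatives changed the pseudocount, filter, scaling, block, sample weights, trend, thresholds and samples. Tables and figures used pandas 2.3.3, numpy 2.4.6, matplotlib 3.10.9 and scipy 1.17.1 in Python 3.11.15.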

Additional observations from a re-analysis of the deposited data

How the results depend on the processing

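The count of 11 called leukocyte genes stayed between 9 and 16 under other pseudocounts, filters, scalings, trends and thresholds, and 0 of them were called lower there. Sample weights gave 19 calls, 17 higher and 2 lower (Cd79b and Ms4a1), and 1590 calls over all genes against 817. An adjusted p below 0.05 gave 1313 calls over all genes and an absolute log2 fold change above 1 gave 411. Without a filter the median log2 fold change of the leukocyte genes was 0.81 against 1.24, as the 12 low genes entered.

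Leaving out a sample gave 4 to 16 called leukocyte genes, 382 to 899 calls over all genes and medians of 1.12 to 1.46. The lowest count of leukocyte genes was without control 1, and the highest, which included Cd79b and Ms4a1 as lower, without iPCKO 1. Counts were 6 without control 3, 7 without iPCKO 2, 8 without iPCKO 3 and 12 without control 2. Tyrobp, Spi1, Fcgr3 and Coro1a remained without control 1. Mcpt4, not called, had -0.05 and turned positive without control 2 (0.03) and without iPCKO 2 (0.33), in a range of -0.29 to 0.33. Single genes' values were also tallied under the other pseudocounts and scalings, the replicate block and the left-out samples. Of these values, 205 kept direction and side of the threshold, 24 lost and 11 gained a call, and 2 turned sign. Other filters, sample weights, the fit without a trend and other thresholds were not part of that tally.

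Samples that share a replicate number did not deviate together throughout, with correlations of 0.24, 0.09 and 0.02, and iPCKO 3 correlated best with control 2 (0.27). With 3 samples per group, these correlations cannot settle whether the numbers pair the samples. With the number as a replicate block 15 leukocyte genes were called, adding Ptprc, Adgre1, Csf1r and Cd14, and 922 genes over all. The cause of these changes was not tested. Few reads, 1 to 58, stand behind a value of the T and NK cell genes and of Siglecf, Flt3 and Ms4a2, and what depth contributed to their lack of calls was not tested.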
